A study of Mus musculus with 8 samples.

Results

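The complement genes described here are 9 genes, C1qa, C1qb, C1qc, Serping1, C3, Cfb, Cfp, C3ar1 and C5ar1, taken by symbol from the 13681 symbols of the deposited expression table. All 9 had an entry and passed the filter on low values. RNA sequencing measured them in 8 samples of thymic lymphoma from C57BL/6 mice labelled p53-null. The mice were 10 weeks old, adenovirus was given by injection of the lymphoma, and tissue was taken 48 hours after that. The 2 controls are labelled ΔNfl/fl;p53-/- and received Ad-mCherry, a virus with the fluorescent marker alone. The ΔNp63-labelled group (ΔNp63Δ/Δ;p53-/-) and the ΔNp73-labelled group (ΔNp73Δ/Δ;p53-/-) hold 3 samples each, and both received Ad-CRE-mCherry, which carries Cre recombinase as well. The ΔN forms of p63 and p73 lack the N-terminal transactivation domain. All 3 groups carry the p53 label and all samples received a virus. The control label does not say which gene is floxed, and virus and genotype differ together in each comparison with control, so they cannot be told apart there. Only ΔNp73 against ΔNp63 has the same virus on both sides. Whether samples within a group are different mice is not stated in the labels, and the p-values below therefore reflect sample-to-sample spread that may be technical.

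Complement is a cascade of plasma proteins that marks microbes and dying cells. The classical pathway starts when C1q, built from the chains of C1qa, C1qb and C1qc, binds its target and activates the proteases C1r and C1s, which the C1 inhibitor encoded by Serping1 restrains. All pathways meet at C3, whose cleavage tags surfaces; factor B (Cfb) forms the alternative pathway convertase and properdin (Cfp) stabilises it. The fragments C3a and C5a signal through the receptors of C3ar1 and C5ar1 on myeloid cells. Most plasma complement comes from the liver, while C1q is made largely by macrophages and dendritic cells, and properdin by myeloid cells and T cells. Tissue macrophages are known in the thymus for clearing dying thymocytes.

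The 3 C1q genes are direct neighbours on chromosome 4 in the RefSeq annotation of GRCm38.p6. Promoter sequences, running from 250 bases before to 50 after the annotated start, were matched in the RefSeq table of that build for C1qb, C1qc, C3, C3ar1, C5ar1 and Cfp, 6 of the 9 genes. Those of C1qb and C1qc are shown because the genes adjoin and their levels ran in parallel, and those of C3 and C3ar1 because the 2 genes differed once set against macrophage markers. All 4 lie on the minus strand, and capitals mark matches to the motifs named in the next paragraph. The regions are chr4:136886151-136886450, chr4:136892865-136893164, chr17:57228087-57228386 and chr6:122856108-122856407, in that order.
C1qb: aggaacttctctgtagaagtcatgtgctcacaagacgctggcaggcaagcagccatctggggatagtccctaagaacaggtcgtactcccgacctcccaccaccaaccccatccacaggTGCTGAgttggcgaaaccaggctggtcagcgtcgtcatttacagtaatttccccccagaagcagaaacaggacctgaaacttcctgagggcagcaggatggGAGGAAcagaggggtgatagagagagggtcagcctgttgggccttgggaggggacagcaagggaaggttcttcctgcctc
C1qc: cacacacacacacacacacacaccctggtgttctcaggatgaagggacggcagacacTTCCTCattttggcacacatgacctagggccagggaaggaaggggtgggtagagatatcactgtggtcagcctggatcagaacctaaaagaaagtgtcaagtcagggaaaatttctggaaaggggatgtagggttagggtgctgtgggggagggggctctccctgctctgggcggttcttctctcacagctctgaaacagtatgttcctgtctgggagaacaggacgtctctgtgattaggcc
C3: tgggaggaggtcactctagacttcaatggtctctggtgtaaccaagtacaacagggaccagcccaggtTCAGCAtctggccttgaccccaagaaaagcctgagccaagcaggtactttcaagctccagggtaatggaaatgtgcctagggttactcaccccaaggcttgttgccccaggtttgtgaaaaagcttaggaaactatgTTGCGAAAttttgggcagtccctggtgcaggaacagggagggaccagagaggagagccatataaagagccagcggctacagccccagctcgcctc
C3ar1: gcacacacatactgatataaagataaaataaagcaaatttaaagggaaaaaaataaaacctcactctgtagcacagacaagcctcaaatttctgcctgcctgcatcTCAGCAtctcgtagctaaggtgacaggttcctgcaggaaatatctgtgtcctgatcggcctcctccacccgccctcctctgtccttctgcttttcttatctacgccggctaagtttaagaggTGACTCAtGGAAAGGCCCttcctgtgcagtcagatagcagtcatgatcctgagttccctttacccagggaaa

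The motifs were searched on both strands, and no matches overlapped in the 4 windows. The ETS core GAGGAA, which the myeloid factor PU.1 can bind, occurred in C1qb and C1qc, and in 28.1% of all 32544 promoters of the table. The MAF half-site TGCTGA occurred in C1qb, C3 and C3ar1, and in 19.5% of all promoters. C3 held the C/EBP motif TTGCNNAA, present in 10.8% of promoters. C3ar1 held the AP-1 motif TGANTCA (7.79% of promoters) and the NF-kB motif, GGG and TTTCC with 2 bases of any kind between (1.61%), separated by 1 base. The interferon-stimulated element, GAAA and GAAA with 2 bases of any kind between (3.45%), and the GAS motif TTCNNNGAA (8.33%) had no match in the 4 windows. The matched promoters not shown were searched too: C5ar1 held 1 MAF half-site and Cfp held 2 ETS cores. Neither held an AP-1 or NF-kB match, although C5ar1, like C3ar1, was higher against macrophage markers. A match describes the letters only.

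Values are FPKM (fragments scaled by transcript length and by library size), quantile-normalised by the authors as read from the table's title and its nearly equal distributions, so depth is unknown. ΔNp63-labelled replicate 2 stood apart. Its median correlation with the other libraries across genes was 0.847, against 0.915 to 0.956 for the other 7. Counts of the complement genes that passed are given with and without it. Single-gene fold changes, correlations and marker sums include it unless stated. Of the thymocyte markers, Cd3e was between 234.8 and 430.1 FPKM and Rag1 between 51.9 and 965 over the 8 libraries. Rag1 was lowest in ΔNp63-labelled replicate 2. The thymocyte marker Ptcra was at 0.401 FPKM in that library, against 12.7 and 13.4 in control samples. The targeted gene Trp63 has 4 entries, and that with the highest mean was at 3.38 to 5.21 FPKM in controls, 1.05 to 9.91 in ΔNp63-labelled and 6.38 to 13.8 in ΔNp73-labelled samples, which does not settle whether ΔNp63 was lost. Trp53 was still measured, at 10.96 to 81.0 FPKM over the 8 libraries. Replicate numbers are the order of the samples in the deposit and pair nothing across groups. Directions rest on the labels. No entry under the symbol Trp73 was found, so loss of ΔNp73 could not be checked here.

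All 9 complement genes were higher in each of the 3 ΔNp73-labelled samples than in both controls, as were 27.7% of all genes tested. The difference ran from 2.69-fold for C3 to 12.5-fold for C3ar1 in group means, and was larger for C5ar1, which was near 0 in the controls. In the ΔNp63-labelled group all 9 were higher than both controls in replicates 1 and 3, as were 31.9% of all genes tested without replicate 2. In replicate 2 each was at its lowest among the 6 deletion libraries, and C1qc and C3 overlapped the controls. The genes fell into a group of smaller differences (the C1q chains, C3 and properdin) and a group of larger ones (Cfb, C3ar1, C5ar1 and, between them, Serping1). No difference from control passed the test with all libraries. Without replicate 2 all 9 rose in both deletion groups, where 11.7% (ΔNp63) and 16.8% (ΔNp73) of all genes were called higher.

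**Figure D1:**
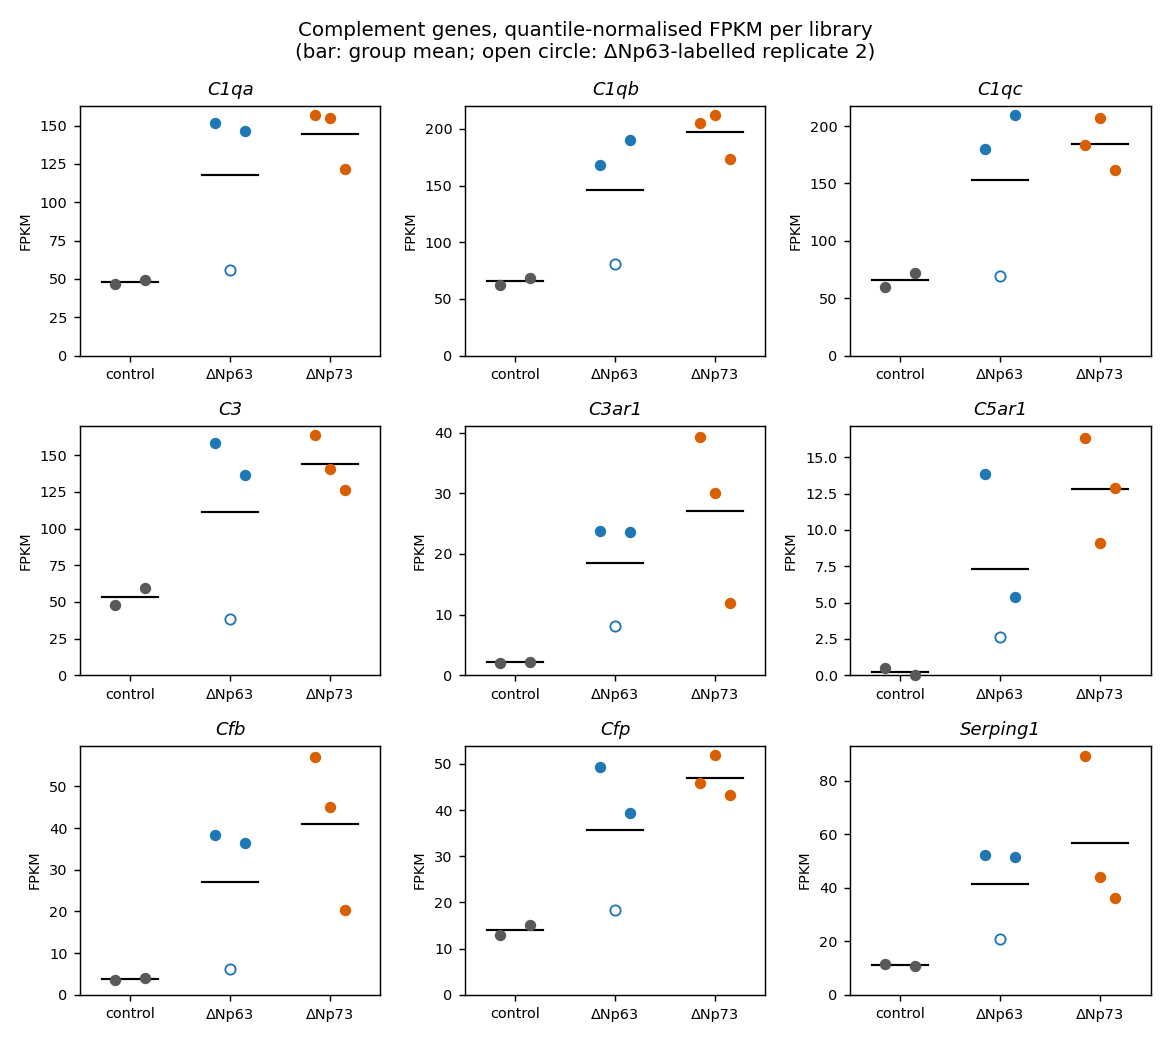
Quantile-normalised FPKM (y axes, linear, from 0) of the 9 complement genes in each library of the control, ΔNp63-labelled and ΔNp73-labelled groups; points are libraries, bars group means, and the open circle ΔNp63-labelled replicate 2. All ΔNp73-labelled points lie above both controls in every panel, and the open circle is the lowest deletion library in every panel.

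C1qa, the A chain of C1q, was at 46.7 and 49.5 FPKM in control samples. It was at 151.7, 55.7 and 146.5 in ΔNp63-labelled samples and at 157.1, 155.1 and 122.0 in ΔNp73-labelled samples. Replicate 2 of the ΔNp63-labelled group lay just above the controls and all other deletion libraries far above them. The mean went from 48.1 ± 1.98 (SD, n = 2) to 144.7 ± 19.7 (SD, n = 3) in the ΔNp73-labelled group, a log2 fold change of 1.56 (SE 0.42, adjusted p = 0.116 by limma). In the ΔNp63-labelled group it was 1.14 (SE 0.42, adjusted p = 0.326).

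C1qb, the B chain, was at 62.4 and 68.7 FPKM in control samples, at 168.3, 80.4 and 190.2 in ΔNp63-labelled samples and at 205.1, 212.4 and 173.6 in ΔNp73-labelled samples. C1qc, the C chain, was at 59.6 and 72.0 in the controls, at 180.3, 69.5 and 209.8 in ΔNp63-labelled samples and at 183.5, 207.0 and 162.2 in ΔNp73-labelled samples. Neither gene overlapped between ΔNp73-labelled and control libraries, while C1qc in ΔNp63-labelled replicate 2 lay between the controls. The log2 fold changes of C1qb were 1.06 (SE 0.35, adjusted p = 0.299 by limma) and 1.57 (SE 0.35, adjusted p = 0.0945) for ΔNp63 and ΔNp73. Those of C1qc were 1.06 (SE 0.44, adjusted p = 0.369 by limma) and 1.47 (SE 0.44, adjusted p = 0.135). The chains, which are assembled in equal numbers in the protein, kept close proportions by FPKM: C1qb was 1.11 to 1.44 times C1qa over the 8 libraries, and C1qc 1.17 to 1.45 times C1qa. These ratios overlapped between all groups.

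Serping1, which encodes the inhibitor of C1r and C1s, was at 11.5 and 10.7 FPKM in control samples. It was at 52.2, 20.9 and 51.6 in ΔNp63-labelled samples and at 89.3, 44.1 and 36.4 in ΔNp73-labelled samples. All 6 deletion libraries lay above both controls, replicate 2 of the ΔNp63-labelled group included, at 1.88 times the control mean. Its log2 fold changes were 1.70 (SE 0.49, adjusted p = 0.256 by limma) for ΔNp63 and 2.14 (SE 0.49, adjusted p = 0.0963) for ΔNp73.

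C3, the common component of all pathways, was at 47.6 and 59.3 FPKM in control samples, at 158.6, 38.3 and 136.5 in ΔNp63-labelled samples and at 163.8, 140.9 and 126.7 in ΔNp73-labelled samples. ΔNp63-labelled replicate 2 was below both controls, at 0.717 times their mean, and C3 was the single gene of the 9 with this position. Its log2 fold change was 0.81 for ΔNp63, the smallest of the 9 (SE 0.55, adjusted p = 0.568 by limma), and 1.41 for ΔNp73 (SE 0.55, adjusted p = 0.209).

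Cfb, the protease of the alternative pathway convertase, was at 3.46 and 3.9995 FPKM in control samples. It was at 38.3, 6.17 and 36.5 in ΔNp63-labelled samples and at 57.1, 45.1 and 20.4 in ΔNp73-labelled samples. The groups did not overlap, though replicate 2 of the ΔNp63-labelled group and replicate 3 of the ΔNp73-labelled group lay well below the others. Its log2 fold changes were 2.22 (SE 0.76, adjusted p = 0.312 by limma) and 3.03 (SE 0.76, adjusted p = 0.108). Cfb adjoins C2, which encodes the matching protease of the classical pathway, on chromosome 17, and how reads between the 2 genes were assigned is not stated. A second Cfb entry was near 0 in controls and between 0.262 and 1.10 FPKM in the deletion libraries.

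Cfp, properdin, was at 13.02 and 15.2 FPKM in control samples, at 49.4, 18.4 and 39.3 in ΔNp63-labelled samples and at 45.8, 52.0 and 43.4 in ΔNp73-labelled samples. Its 3 ΔNp73-labelled values were the closest together, in proportion to their mean, of the 9 genes. The log2 fold changes were 1.17 (SE 0.37, adjusted p = 0.287 by limma) for ΔNp63 and 1.67 (SE 0.37, adjusted p = 0.0945) for ΔNp73.

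C3ar1, the C3a receptor, was at 2.07 and 2.25 FPKM in control samples. It was at 23.7, 8.20 and 23.6 in ΔNp63-labelled samples and at 39.3, 29.98 and 11.97 in ΔNp73-labelled samples. Every deletion library was above both controls, and ΔNp63-labelled replicate 2 was at 3.80 times their mean. The log2 fold changes were 2.49 (SE 0.58, adjusted p = 0.206 by limma) and 3.00 (SE 0.58, adjusted p = 0.0787).

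C5ar1, the C5a receptor, had its higher entry at 0.491 and 0.00750 FPKM in control samples, at 13.9, 2.66 and 5.41 in ΔNp63-labelled samples and at 16.3, 9.12 and 12.9 in ΔNp73-labelled samples. It thus passed the filter through the deletion libraries alone. Its log2 fold changes were 2.52 (SE 0.55, adjusted p = 0.191 by limma) and 3.46 (SE 0.55, adjusted p = 0.0676). With a pseudocount of 0.1 in place of 1 they were 4.57 and 5.64, so their size depends on the pseudocount. A second C5ar1 entry was at 8.03e-06 and 1.02 FPKM in control samples and at 1.08 to 7.36 in the deletion libraries, and with both entries summed the log2 fold changes were 2.54 and 3.44.

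By limma, with p adjusted over all 12921 genes tested, 0 of the 9 passed in the ΔNp63-labelled group, where 0.0929% of all genes passed, and 0 in the ΔNp73-labelled group, where 0.0542% passed. At an unadjusted p under 0.05, 8 of 9 were higher in the ΔNp63-labelled group, all but C3, against 5.96% of all genes. In the ΔNp73-labelled group 9 of 9 were higher at that level, against 11.4%. The libraries did not overlap for 7 of 9 in the ΔNp63-labelled group, where 12.6% of all genes had every library above both controls, and for 9 of 9 in the ΔNp73-labelled group, where 27.7% did. The median log2 fold change of the 9 was 1.17 for ΔNp63 and 1.67 for ΔNp73, beside -0.020 and -0.071 over all genes. The 2 comparisons share their controls. C5ar1 passed the filter through the deletion libraries alone, which partly fixes its direction. Of the other 8 genes, those higher with an unadjusted p under 0.05 numbered 7 for ΔNp63 and 8 for ΔNp73, and the median log2 fold change was 1.16 and 1.62.

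Without ΔNp63-labelled replicate 2, 9 of 9 rose by limma in the ΔNp63-labelled group, with log2 fold changes of 1.44 to 3.02 and adjusted p of 0.00176 to 0.00903. Of all genes, 11.7% passed as higher in that model. In the ΔNp73-labelled group 9 of 9 rose as well, with log2 fold changes of 1.41 to 3.46 and adjusted p of 0.000783 to 0.00451 by limma, against 16.8% of all genes. For ΔNp63 and ΔNp73 alike, 8 of the 8 genes other than C5ar1 are among those that rose. The 9 ΔNp73 differences were the same as with all libraries, since replicate 2 enters them through the shared spread alone: the median SE went from 0.49 to 0.15. A model of the ΔNp73-labelled and control libraries alone also called 9 of 9 higher, against 15.9% of all genes. The same kind of model for ΔNp63, which keeps replicate 2, called 0 of 9 by limma (adjusted p 0.570 to 0.776), with 6 of 9 at an unadjusted p under 0.05, and 0.0396% of all genes passed. For the mean of both deletion groups against control, 0 of 9 passed with all libraries by limma (0.116% of all genes passed, and 8 of the 9 had an unadjusted p under 0.05, against 9.34% called higher at that level). The libraries did not overlap there for 7 of 9, against 8.47% of all genes. Without replicate 2, 9 of 9 rose in the combined comparison, against 16.5% of all genes. With weights that limma estimated for each library, and all 8 kept, 9 of 9 rose in the ΔNp63, ΔNp73 and combined comparisons, where 16.3%, 23.5% and 22.6% of all genes were called higher.

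**Figure D2:**
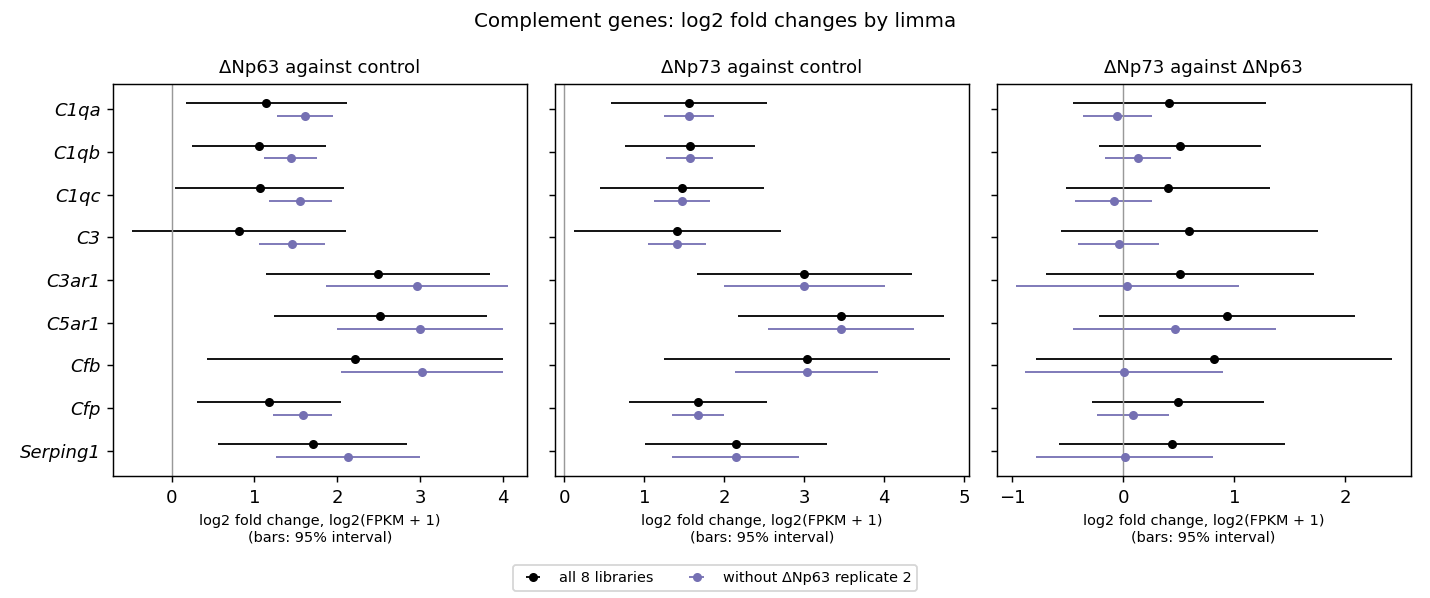
Log2 fold change on the log2(FPKM + 1) scale (x axes) with its 95% interval for the 9 complement genes (y axis) in 3 comparisons, with all 8 libraries (black) and without ΔNp63-labelled replicate 2 (purple). The intervals of the comparisons with control narrow without that library, and those of ΔNp73 against ΔNp63 span 0 for every gene.

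The deletion groups were not told apart by any of the 9 genes. ΔNp73 against ΔNp63 gave log2 differences from 0.41 for C1qc to 0.93 for C5ar1, with adjusted p of 0.496 to 0.630 by limma. Of the 9 genes 0 passed, as did 0.0542% of all genes, and 0 of 9 had an unadjusted p under 0.05 (6.11% of all genes were higher at that level). All 9 overlapped between the 2 groups, while 10.3% of all genes had every ΔNp73-labelled library above every ΔNp63-labelled one. The 95% intervals reached from -0.45 to 1.29 for C1qa and from -0.79 to 2.42 for Cfb, so differences of these sizes cannot be told from none. Without replicate 2 the differences were -0.085 to 0.46, 0 of 9 passed by limma with 0 at an unadjusted p under 0.05 (0.0626% of all genes were called higher), and the interval was -0.36 to 0.26 for C1qa and -0.88 to 0.90 for Cfb.

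Across the 8 libraries the 9 genes ran together. Pearson's r of log2(FPKM + 1) over the 36 pairs had a median of 0.94 and lay between 0.84, for C3 with C5ar1, and 0.99, for C1qa with C1qb. These values describe 8 points in 3 groups that share the low position of the controls and of replicate 2. Of 8025 other genes with a mean of at least 5 FPKM, the 5 with the profile most like the mean of the C1q chains were Myd88, an adaptor of Toll-like receptors, the lysosomal hexosaminidase gene Hexa, Pld4, the progranulin gene Grn and Tmem173, which encodes the DNA-sensing adaptor STING (r = 0.994 to 0.998, n = 8). Myd88 was at 7.84 and 9.17 FPKM in control samples, at 22.5, 9.03 and 22.7 in ΔNp63-labelled samples and at 24.2, 25.3 and 20.9 in ΔNp73-labelled samples. For C3 they were Tspan3, Ifitm2, the adhesion gene Icam1, Ifitm3 and Npdc1 (r = 0.991 to 0.997). For Cfb they were Tlr1, Apobec1, the chemokine gene Ccl7, the transglutaminase gene Tgm2 and D14Ertd668e (r = 0.995 to 0.997), and for Serping1 they were Fam3a, the galectin gene Lgals3, Bcam, Abhd12 and C1ra (r = 0.985 to 0.989).

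Macrophage markers moved with the complement genes. Of 14 symbols in the list 13 had an entry, under current or older names, and none was at 0 in any library. All 13 were above the controls in group mean in both deletion groups, as log2 values, and 0 passed by limma with all libraries, with 7 (ΔNp63) and 13 (ΔNp73) higher at an unadjusted p under 0.05, against 5.96% and 11.4% of all genes. Without replicate 2, 12 rose in the ΔNp63-labelled and 13 in the ΔNp73-labelled group, against 11.7% and 16.8% of all genes. Their summed level was 307.5 to 349.3 FPKM in control samples, 318.4 to 949 in ΔNp63-labelled samples, where replicate 2 was the lowest, and 883 to 1285 in ΔNp73-labelled samples. The defining marker Csf1r was at 9.46 and 8.99 FPKM in control samples, at 29.4, 11.9 and 24.6 in ΔNp63-labelled samples and at 35.2, 36.5 and 31.0 in ΔNp73-labelled samples. In bulk tissue, fewer cells of a type and less RNA per cell cannot be told apart.

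Set against these markers, the complement genes fell on different sides of the controls. The sum of the C1q chains was divided by the summed FPKM of 12 macrophage markers, which leaves out Itgam because it encodes part of a complement receptor. That ratio was 0.554 and 0.553 in the controls, 0.532, 0.658 and 0.614 in ΔNp63-labelled and 0.430, 0.539 and 0.522 in ΔNp73-labelled samples. The ΔNp63-labelled libraries lay on both sides of the controls, and the ΔNp73-labelled ones slightly below. The C1q sum itself was 168.7 and 190.3 FPKM in control samples, 500.3, 205.5 and 546.5 in ΔNp63-labelled and 545.7, 574.6 and 457.7 in ΔNp73-labelled samples. C3 was at 15.6 and 17.2 FPKM per 100 FPKM of these markers in the controls and at 12.3 to 16.9 in the deletion libraries, none of which exceeded both controls.

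C3ar1, in contrast, was at 0.680 and 0.654 FPKM per 100 FPKM of macrophage markers in the controls, at 2.52, 2.63 and 2.65 in ΔNp63-labelled samples and at 3.10, 2.81 and 1.37 in ΔNp73-labelled samples. ΔNp63-labelled replicate 2, in the middle of these, was level with the other libraries of its group on this scale. Cfb was at 1.14 and 1.16 in the controls, at 4.08, 1.97 and 4.10 in ΔNp63-labelled samples and at 4.50, 4.24 and 2.33 in ΔNp73-labelled samples. C5ar1 was at 0.161 and 0.00218 in the controls and at 0.608 to 1.48 in the deletion libraries, and Serping1 at 3.77 and 3.12 in the controls and at 4.14 to 7.04 in the deletion libraries. For each of these 4 genes all 6 deletion libraries exceeded both controls on this scale, as did 1.03% of all genes tested. Fcgr1, itself a marker in the sum, did so too, so such an excess is not particular to complement genes. Its group means were 15.6 (ΔNp63) and 23.0 (ΔNp73) times the control mean. Those of Lyz2, the largest marker in the sum, were 1.70 and 2.44 times. C5ar1 was set on the marker-sum scale by its higher entry, which passed the filter through the deletion libraries alone, partly fixing its direction. Its second entry, in ΔNp73-labelled replicate 3, was at 1.89 FPKM beside a marker sum of 876.4. Control 2 was at 1.02 beside 344.1, so that deletion library did not exceed both controls by the second entry. With Csf1r alone as the denominator, C3ar1, C5ar1 and Cfb exceeded both controls in 6 of 6 libraries and Serping1 in 4 of 6. The share of all genes that did so relative to Csf1r was not computed, so these counts stand without a background. Cfp exceeded both controls in 4 of 6 libraries relative to the marker sum and in 0 of 6 relative to Csf1r. These scales were chosen with the values in view for the genes other than C1q, and no test was made on them.

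**Figure D3:**
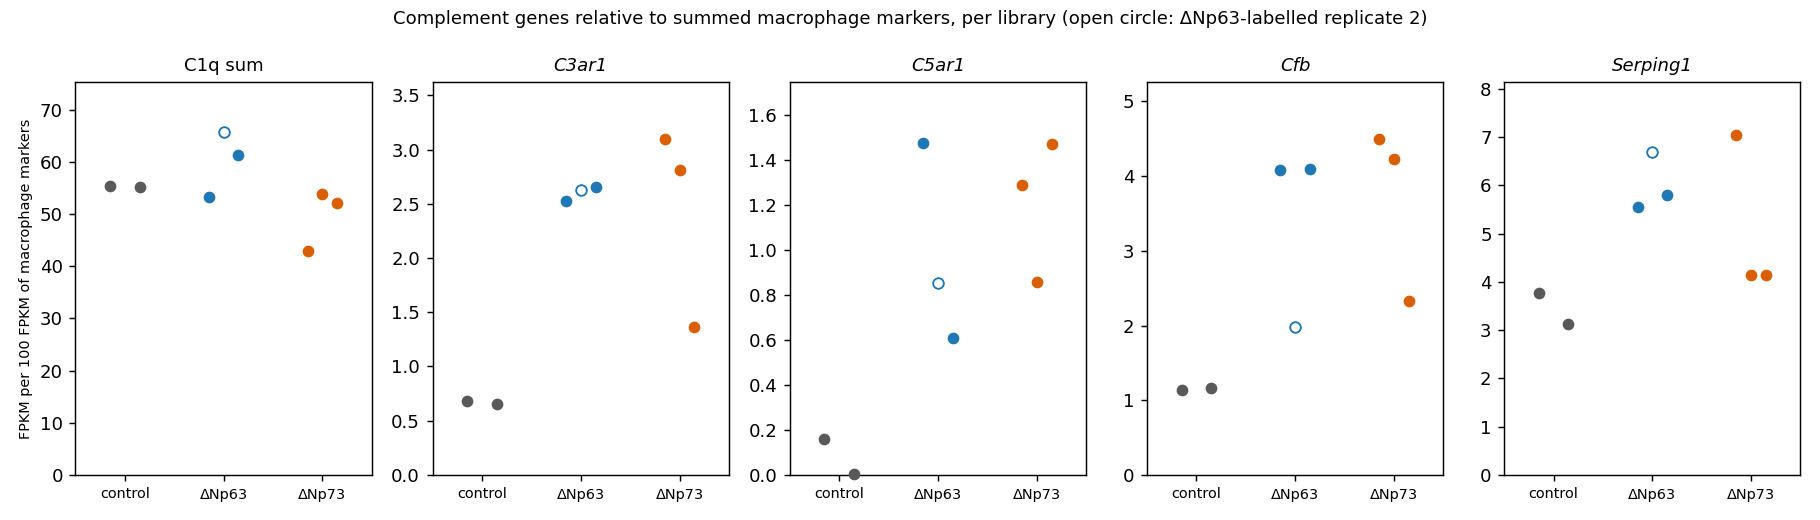
FPKM per 100 FPKM of summed macrophage markers (y axes, linear, from 0) for the C1q chains together, C3ar1, C5ar1, Cfb and Serping1 in each library of the 3 groups; points are libraries and the open circle is ΔNp63-labelled replicate 2. The C1q points of the ΔNp63-labelled group lie on both sides of the controls, and those of the ΔNp73-labelled group lie below them. For the other 4 genes, C5ar1 by its higher entry, all 6 deletion libraries lie above both controls.

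Markers of other cell types that can make complement or carry its receptors were read beside these values. The 8 neutrophil markers, relevant to C5ar1 and Cfp, summed to 172.1 and 671 FPKM in control samples, to 767, 56.0 and 769 in ΔNp63-labelled and to 939, 1573 and 1195 in ΔNp73-labelled samples. ΔNp63-labelled replicate 2 had the lowest neutrophil sum of all. In that library S100a8, S100a9, Csf3r, Ngp, Ltf and Camp were below both controls, and Retnlg lay between them. Only the neutrophil receptor gene Cxcr2, at 2.24 FPKM, was above both controls, at 1.08 and 1.79. The C5ar1 level of that library was above both controls. The 7 fibroblast markers, relevant to C3, Serping1 and C1s, summed to 75.7 to 77.5 FPKM in control samples, to 89.9 to 208.1 in ΔNp63-labelled and to 225.9 to 318.4 in ΔNp73-labelled samples. The 5 endothelial markers summed to 21.2 to 29.1, 27.6 to 32.4 and 30.2 to 53.4 FPKM in the same order. Col1a2, a collagen gene, was the 1 fibroblast marker that rose in the ΔNp73-labelled group with all libraries (log2 fold change 2.18, SE 0.23, adjusted p = 0.0475 by limma), where 0.0542% of all genes passed. Without ΔNp63-labelled replicate 2, 4 of the 7 fibroblast markers rose for ΔNp63 and 7 for ΔNp73, against 11.7% and 16.8% of all genes. In that setting 3 and 5 of the 8 neutrophil markers rose, and 0 and 2 of the 5 endothelial markers. Of the neutrophil markers, Csf3r, at 0.284 and 0.487 FPKM in controls, passed the filter through deletion libraries, which partly fixes its direction. None of the neutrophil, fibroblast or endothelial markers was listed at 0, though Pdgfrb was at 0.00836 FPKM in a control. Their part in the complement values was not tested.

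Hepatocyte markers were low, although liver is the main source of plasma complement. Of 6 hepatocyte symbols 4 had an entry, and their sum was 4.22 to 5.17 FPKM in control samples, 2.87 to 4.66 in ΔNp63-labelled and 3.95 to 7.30 in ΔNp73-labelled samples. Albumin (Alb) was at most 1.67 FPKM, and its highest value was in a control, while Ahsg was listed at 0 in 1 library. Apoa1 was at 1.45 to 4.31 FPKM over all libraries. Serpina1a was at 0.792 and 1.26 FPKM in control samples and at 0.129, 0.0747 and 0.670 in ΔNp63-labelled samples. In ΔNp73-labelled samples Serpina1a was at 2.03, 2.30 and 2.57, above both controls. The 4 dendritic cell symbols with an entry summed to 8.59 to 9.62 FPKM in control samples, 4.15 to 15.1 in ΔNp63-labelled and 13.2 to 14.5 in ΔNp73-labelled samples. The 4 B cell markers, relevant to the complement receptor gene Cr2, summed to 24.6 to 25.2, 3.44 to 54.4 and 30.8 to 34.5 FPKM in the same order.

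Thymocyte markers were lower in both deletion groups, though by limma 0 of 7 fell with all libraries; without replicate 2, 1 fell in the ΔNp63-labelled and 5 in the ΔNp73-labelled group, against 10.8% and 16.1% of all genes called lower. All 7 were below control by log2 fold change in both groups, though Cd3e overlapped the controls in both. The sum of the 7 was 3043 to 3723 FPKM in control samples, 1229 to 2489 in ΔNp63-labelled and 1335 to 2141 in ΔNp73-labelled samples. Replicate 2 of the ΔNp63-labelled group had the lowest thymocyte sum of all 8, beside C1q and C3 values near the controls. Of 16 interferon response genes all were above control in both groups by log2 fold change, and 0 passed by limma with all libraries. At an unadjusted p under 0.05, 5 (ΔNp63) and 12 (ΔNp73) were higher, against 5.96% and 11.4% of all genes. Without replicate 2, 14 rose in each group, against 11.7% and 16.8%. Mx1, at 0.353 and 0.588 FPKM in controls, passed the filter through deletion libraries. The sum of the 16 was 355.2 to 372.3 FPKM in control samples and 325.7 to 1039 in ΔNp63-labelled samples, with replicate 2 lowest. In ΔNp73-labelled samples it was 667 to 1401, with replicate 3 lowest. Replicate 3 was also the lowest ΔNp73-labelled library for C1qa, C1qb, C1qc, C3, C3ar1, Cfb, Cfp and Serping1, but not for C5ar1. How far these lists account for the complement values was not tested.

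Beyond the 9 genes, 23 of 43 further complement symbols had an entry, the list holding older and newer names of some genes, and 20 were tested. Of these, C1rb, C4a, C6 and Cr2 were under 1 FPKM in both controls and passed the filter through deletion libraries. By limma 0 of 20 passed in either comparison with control. At an unadjusted p under 0.05, 4 of 20 were higher in the ΔNp63-labelled group (5.96% of all genes) and 9 in the ΔNp73-labelled group (11.4%). The median log2 fold change of the 20 was 0.67 and 0.88. Without replicate 2, 12 of 20 rose and 0 fell in the ΔNp63-labelled group, against 11.7% of all genes called higher, and 13 of 20 rose and 0 fell in the ΔNp73-labelled group, against 16.8%.

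The proteases that C1q activates were measured beside it. C1ra, which encodes C1r, was at 4.04 and 4.05 FPKM in control samples, at 17.2, 5.60 and 14.9 in ΔNp63-labelled samples and at 20.8, 12.4 and 12.0 in ΔNp73-labelled samples. All 6 deletion libraries exceeded both controls. Its log2 fold changes were 1.30 (SE 0.44, adjusted p = 0.310 by limma) and 1.63 (SE 0.44, adjusted p = 0.119). The close copy C1rb was at 0.714 to 3.09 FPKM over all libraries, and reads of the 2 may have been split uncertainly. C1s was at 5.43 and 5.89 FPKM in control samples and at 11.1 to 18.5 in the deletion libraries other than ΔNp63-labelled replicate 2, which was at 4.66, below both controls. Its log2 fold changes were 0.83 (SE 0.49, adjusted p = 0.504 by limma) and 1.13 (SE 0.49, adjusted p = 0.239).

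C4b, whose product joins C2 in the classical convertase, was at 2.15 and 2.11 FPKM in control samples, at 19.3, 4.47 and 15.6 in ΔNp63-labelled samples and at 19.5, 7.10 and 6.70 in ΔNp73-labelled samples. All 6 deletion libraries exceeded both controls, with log2 fold changes of 1.97 (SE 0.63, adjusted p = 0.289 by limma) and 1.79 (SE 0.63, adjusted p = 0.175). C4a, a near-identical copy, stayed at 0.181 to 1.61 FPKM, and the division of reads between the 2 is uncertain. C2 was at 2.93 and 3.50 in the controls, at 11.9, 2.37 and 13.7 in ΔNp63-labelled samples and at 13.97, 8.25 and 6.54 in ΔNp73-labelled samples. C1rb, C1s, C4a, C4b and C2 were named after their values were seen, as were C7, Gpr77, Cd55 and Cd59a among the genes that follow.

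Cfd, factor D or adipsin, which cleaves factor B and is made by fat cells, did not follow Cfb. It was at 19.5 and 98.2 FPKM in control samples, at 203.6, 17.9 and 109.2 in ΔNp63-labelled samples and at 103.7, 14.3 and 14.1 in ΔNp73-labelled samples. Cfb in the last 2 of these libraries was at 45.1 and 20.4 FPKM, where Cfd was below both controls. The fat cell hormone gene Adipoq was at 6.12 and 40.9 FPKM in control samples, at 61.1, 3.76 and 40.5 in ΔNp63-labelled samples and at 68.3, 5.27 and 3.48 in ΔNp73-labelled samples. The 3 fat cell markers with an entry, of 4 symbols, summed to 111.0 to 730.7 FPKM in the control group, 68.2 to 1700.4 in the ΔNp63 group and 157.1 to 2168 in the ΔNp73 group. Libraries high for Adipoq were high for Cfd, and Cfd was 1.52 to 4.75 times Adipoq over the 8 libraries. The log2 fold change of Cfd was 0.74 (SE 1.27, adjusted p = 0.849 by limma) and -0.64 (SE 1.27, adjusted p = 0.794).

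Among terminal components, C6, a subunit of the membrane attack complex, was at 0.528 and 0.438 FPKM in control samples, at 2.20, 0.459 and 3.21 in ΔNp63-labelled samples and at 3.60, 4.64 and 4.35 in ΔNp73-labelled samples. Its ΔNp73-labelled libraries lay above all 5 others, with a log2 fold change of 1.81 against control (SE 0.41, adjusted p = 0.0962 by limma). C6 was named for its small p, and it passed the filter through the deletion libraries alone, which partly fixes that direction. C7 was low, at 0.0781 to 1.79 FPKM, and highest in a control.

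The complement receptor subunit genes gave smaller differences than C3ar1 and C5ar1. Itgax, the alpha subunit of complement receptor 4, was at 2.18 and 2.24 FPKM in control samples, at 4.77, 3.18 and 5.02 in ΔNp63-labelled samples and at 4.62, 5.16 and 4.89 in ΔNp73-labelled samples. Its log2 fold changes were 0.71 (SE 0.19, adjusted p = 0.236 by limma) and 0.87 (SE 0.19, adjusted p = 0.0886). Itgb2, the beta subunit shared by the leukocyte integrins, T cell LFA-1 included, was at 56.4 and 60.3 FPKM in control samples and at 25.3 in ΔNp63-labelled replicate 2, with 80.9 to 95.2 in the other deletion libraries. Cd93, a surface protein of phagocytes and endothelium, was at 2.52 and 2.44 FPKM in control samples and at 3.00 to 10.7 in the deletion libraries. Gpr77, the older name of the second C5a receptor gene C5ar2 beside C5ar1 on chromosome 7, stayed under 1 FPKM, at 0.109 to 0.800.

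Regulators of complement were divided. Clu, the secreted chaperone clusterin, which also restrains the membrane attack complex, was at 26.7 and 38.0 FPKM in control samples, at 105.8, 13.7 and 62.8 in ΔNp63-labelled samples and at 193.8, 198.3 and 131.1 in ΔNp73-labelled samples. All 3 ΔNp73-labelled libraries lay above all 5 others. The log2 fold change for ΔNp73 was 2.39 (SE 0.74, adjusted p = 0.142 by limma), and between ΔNp73 and ΔNp63 it was 1.89 (SE 0.66, adjusted p = 0.460). Cr1l, the rodent regulator Crry on cell membranes, was the regulator with the highest mean after Clu, at 36.6 and 42.9 FPKM in control samples, 20.6 in ΔNp63-labelled replicate 2 and 51.3 to 61.8 in the other deletion libraries. The membrane regulators Cd55 and Cd59a had log2 fold changes of 0.11 and -0.15 for ΔNp63 and 0.42 and 0.11 for ΔNp73, with adjusted p of at least 0.467 by limma.

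**Figure D4:**
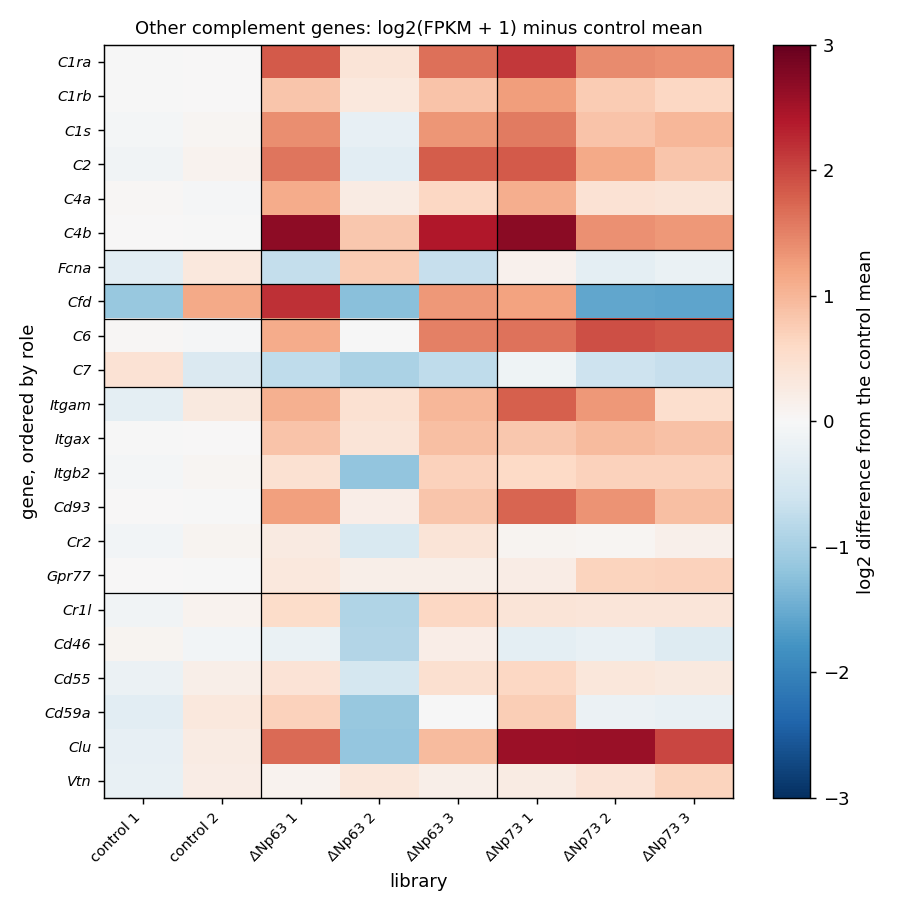
Log2(FPKM + 1) minus the control mean (colour scale, red higher and blue lower) of further complement genes (rows, separated by lines into the classical pathway, a ficolin, factor D, terminal components, receptors and regulators) in each of the 8 libraries (columns). The classical pathway rows are red in all ΔNp73-labelled libraries and in ΔNp63-labelled replicates 1 and 3, while Cfd varies in both directions within each group.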

How the data were processed

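The deposited values are FPKM of RefSeq transcripts in 1 table, a unit read from the table's own title, which also abbreviates quantile normalisation; sorted values differ between libraries by more than 1% in 2321 of 16589 entries. TopHat2 2.0, Cufflinks 2.0 and mm9 are named per the submitters' processing notes, with no roles stated. The table holds no counts, so no counting interval is given. Of symbols with several entries, the entry of highest mean was used. Genes with at least 1 FPKM in at least 2 libraries were put on the log2(FPKM + 1) scale and tested by limma (version 3.58.1, R 4.3.3; 1 model of 3 groups, 5 residual degrees of freedom, empirical Bayes with intensity trend, two-sided, Benjamini-Hochberg over all 12921 genes, threshold 0.05). The code was tested on simulated data. Log2 fold changes understate those of low genes.

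The 9 genes, the marker lists and the tests were chosen with earlier results of these data known. Named further genes were the 4 of the complement list with the highest mean and the 4 with the smallest p, and the 5 genes nearest in profile to the C1q chains, C3, Cfb and Serping1. Alternatives were other pseudocounts (0.1, 0.5), filters (none, 5 FPKM), summed entries, no intensity trend, array weights, 2-group models and leaving out each library. The values of 1 further complement gene are not reported here.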

Additional observations from a re-analysis of the deposited data

How the results depend on the processing

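No paired analysis was possible because the labels number the libraries in a single run and give no replicate numbers shared between groups; those used here follow the order of the samples. The number of complement genes past the threshold against control, 0 of 9 by limma, became 9 with array weights in the ΔNp63, ΔNp73 and combined comparisons, and 9 for ΔNp73 in the 2-group model. Leaving out 1 library at a time gave 0 to 9 in each of these 3 comparisons, 9 without ΔNp63-labelled replicate 2 and 1 (C5ar1, ΔNp73) without ΔNp63-labelled replicate 1; between the deletion groups it stayed 0. Their median log2 fold change ranged from 0.91 to 1.61 (ΔNp63), 1.57 to 1.77 (ΔNp73), 1.28 to 1.62 (combined) and 0.015 to 0.75 (ΔNp73 against ΔNp63). Over all genes, calls went from 12 to 4480 with array weights and 5 in the 2-group model for ΔNp63, and from 7 to 6569 and 3890 for ΔNp73, which had 18 and 11 with a pseudocount of 0.1 and 0.5. They went from 15 to 6296 with array weights and 9 without trend for the combined comparison, and from 7 to 344 with array weights between the deletion groups. Leaving out 1 library gave 3 to 2882, 0 to 4212, 0 to 4194 and 6 to 19 calls in the 4 comparisons. Without either control, where 0 were called for ΔNp73, the lone control is assumed to vary like the other groups.

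Between the deletion groups, signs reversed without ΔNp63-labelled replicate 2 for C1qa (-0.052), C1qc (-0.085) and C3 (-0.041), which reached 0.66, 0.71 and 0.97 without another library, and with array weights for C3 (-0.054) and Serping1 (-0.13); the cause was not tested. The ratio of C1q to macrophage markers relative to control was 1.09 for ΔNp63 and 0.898 for ΔNp73, 0.965 and 0.786 with Csf1r alone, and 1.04 to 1.15 and 0.860 to 0.958 without single libraries, an alternative chosen after seeing the data. Of the other alternatives for single genes, 506 kept direction and side of the threshold and 64 passed it.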
